A study of Mus musculus with 13 samples.

Results

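The 10 genes described here encode 6 subunits of the anaphase-promoting complex (APC/C), its 2 coactivators and 2 of its inhibitors: Anapc1, Anapc2, Anapc4, Anapc5, Anapc10 and Anapc11, Cdc20 and Fzr1, and Fbxo5 and Fbxo43. They were taken by gene symbol from tables that hold counts for 18939 genes and FPKM values (fragment counts scaled by transcript length and library size) for 49686 genes, and all 10 were found and passed the filter on low counts in every comparison. The libraries came from 13 single mouse oocytes. GV oocytes are arrested in prophase of the first meiotic division with an intact nucleus, the germinal vesicle, and MII oocytes are arrested at metaphase of the second. GV oocytes fall into the surrounded nucleolus (SN) type, whose chromatin forms a ring around the nucleolus, and the non-surrounded nucleolus (NSN) type, whose chromatin does not.

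There were 3 oocytes in each GV group, 3 NSN-MII oocytes (matured from NSN oocytes) and 4 SN-MII oocytes (matured from SN oocytes), and what follows applied to all of them. The females were C57BL/6 mice of 3 to 4 weeks, primed with PMSG (a gonadotropin) for 48 h. Each oocyte carried injected mRNA for FBL–GFP, a nucleolar marker, and was held at GV with Cilostamide, an inhibitor of meiotic resumption, for 6 h. Its type was read from the FBL–GFP pattern, and the MII oocytes were matured in culture from GV oocytes of the named type. Because an oocyte is used up by its library, the GV and MII oocytes were different cells. MII groups hold only oocytes that completed maturation, so maturation and the selection of oocytes able to mature cannot be told apart. The labels do not say which oocytes shared a mouse or a day, and p-values measure the spread between these oocytes.

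The APC/C is a ubiquitin ligase that marks cyclin B and securin for destruction, and with them gone chromosomes separate and the cell leaves division. It works only with a coactivator: Cdh1, the product of Fzr1, acts in the prophase arrest of the GV oocyte, where it keeps cyclin B low, and Cdc20 acts at the exit from metaphase. Emi1, the product of Fbxo5, and Emi2, the product of Fbxo43, inhibit the complex, and Emi2 holds the mature egg at metaphase II until fertilization.

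cDNA was primed on poly(A) tails and amplified by SMART-seq2. Fewer mRNA molecules and shorter poly(A) tails therefore cannot be told apart in these values, nor can a change in total RNA per oocyte from a change in the other genes. In maturing oocytes many stored mRNAs receive longer tails through the cytoplasmic polyadenylation element (CPE), searched here as TTTTAT or TTTTAAT on the mRNA strand within the last 100 bases of the annotated 3′ UTR. The window held a CPE in 2 of the 10 genes (20%), Cdc20 and Fbxo5, against 17.3% of all protein-coding genes and 19.7% of the genes tested between stages. The sites of both genes are shown, whatever their change between stages. The stretches come from the GENCODE transcripts of build GRCm38, 5′ to 3′ on the mRNA, with the CPE and, where it falls inside the stretch, the poly(A) signal AATAAA in capitals.

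Cdc20: ttttaTTTTATtttttctAATAAAgttcgt
Fbxo5: aatgtgagttttTTTTATatctgtgaatac

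The Cdc20 stretch lies at chr4:118432911-118432940 on the minus strand, in a 3′ UTR of only 62 bases. Its marked CPE begins 35 bases from the annotated end and its poly(A) signal 22 bases from it, and a second, overlapping copy of TTTTAT brings the matches to 2. The Fbxo5 stretch lies at chr10:5799226-5799255 on the minus strand, in a 3′ UTR of 411 bases, with its CPE 84 bases from the end and a poly(A) signal 17 bases from the end, outside the stretch shown. Fbxo43 was called higher at MII. Its annotated transcript of 4035 bases has a 3′ UTR of 1584 bases, with neither CPE spelling in the window. The signal ATTAAA lies 26 bases from its end. In SN GV replicate 1, Fbxo43 had 1877 counts at 90.4 FPKM. Cdc20, with a transcript of 1793 bases, had 1828 counts at 129 FPKM in that oocyte. The FPKM therefore point to a Fbxo43 transcript shorter than 4035 bases. The same holds for Anapc10 (326 counts at 13.8 FPKM, 4591 bases annotated) and for Anapc11, described below. The count of 2 of 10 thus covers annotated ends only. Whether Fbxo43 mRNA in these oocytes ends at the annotated site was not tested. Among all genes called higher at MII, 29.7% had a CPE in the window, among those called lower 10.7%, and among those not called 19.9%.

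Total counts per library lay between 7140416 and 8846287, with 11593 to 13342 genes detected. In every library the oocyte markers summed to between 12220 and 17080 FPKM over 10 genes, of which 4 were called higher and 4 lower at MII. Figla was at 31.05 to 76.08 FPKM in GV oocytes and at only 1.35 to 5.18 FPKM in MII oocytes. Zp3 was at 2479 to 3614.2 FPKM in GV and at 42.67 to 275.38 FPKM in MII oocytes. Of 10 cumulus and granulosa cell markers, 8 were at 3.3 FPKM or less in every library. The whole list of 10, whose sum came mostly from Cyp19a1 and Nr5a2, lay between 27.7 and 35.6 FPKM in GV oocytes and between 34.6 and 59.8 FPKM in MII oocytes. Across all genes, the quasi-likelihood test of edgeR, adjusted by Benjamini-Hochberg, called 68.5% of 11375 genes between MII and GV oocytes at an adjusted p under 0.05, with 31.7% higher at MII and 36.8% lower. The median log2 change of all genes was -0.10 with TMM scaling and -0.39 when counts were scaled by library totals alone, and none of the 10 genes changed direction between these scalings. In 47.4% of the genes tested the MII libraries did not overlap the GV libraries. These shares are the background for the counts that follow.

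All 10 genes were called between MII and GV oocytes, 5 higher and 5 lower at MII, and in 9 of them the libraries of the stages did not overlap. The 5 higher at MII were Cdc20, both inhibitor genes, Anapc1 and Anapc10. The 5 lower were Fzr1, Anapc2, Anapc4, Anapc5 and Anapc11. Their median log2 change was -0.16, against -0.10 over all genes. Levels below are CPM (counts scaled to a common library total, after TMM), and log2 changes are MII over GV with a standard error from the fit.

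**Figure D1:**
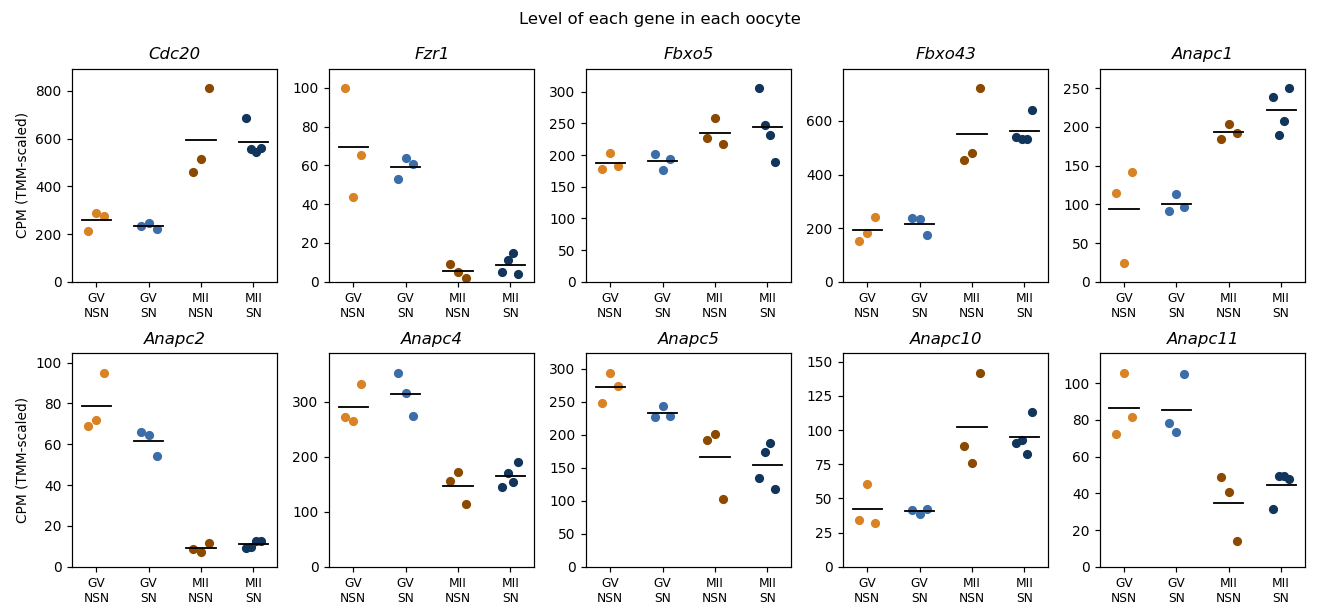
CPM of each of the 10 genes (linear axis from 0, 1 panel per gene) in each oocyte, grouped as GV NSN, GV SN, MII NSN and MII SN; points are oocytes and horizontal lines are group means. MII points lie apart from GV points in every panel but Fbxo5, where they overlap, and NSN and SN points of a stage mostly interleave.

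Cdc20 (chr4:118432901-118437352, minus strand) was at 212, 288 and 276 CPM in the NSN GV oocytes and at 233, 247 and 219.9 CPM in the SN GV oocytes. It was at 459.5, 515 and 813 CPM in the NSN-MII oocytes and at 686, 556, 546 and 559 CPM in the SN-MII oocytes. The lowest MII oocyte stood above the highest GV oocyte of either type, and the widest spread was among the NSN-MII oocytes. Cdc20 rose 2.41-fold (log2 1.27 ± 0.15 SE, adjusted p = 1.61e-06). It shares 53 of its 1868 exonic bases with Elovl1 on the other strand, and reads of the 2 genes cannot be told apart there without strand information. Elovl1 moved the other way, with a log2 change of -2.003.

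Fzr1 (chr10:81366222-81378516, minus strand) showed the opposite pattern and the largest change of the 10. It was at 99.9, 43.8 and 65.2 CPM in the NSN GV oocytes and at 53.0, 63.6 and 60.8 CPM in the SN GV oocytes. At MII it was at 9.16, 4.82 and 2.02 CPM in NSN-MII oocytes and at 5.17, 11.4, 14.98 and 3.95 CPM in SN-MII oocytes. Every MII oocyte was well under every GV oocyte, and the MII values rest on 12 to 114 counts per library against 351 to 951 at GV. Fzr1 fell 9.22-fold (log2 -3.21 ± 0.35 SE, adjusted p = 6.18e-07).

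The 2 coactivator genes therefore moved in opposite directions, and their ratio can be read in each oocyte. In FPKM, which are scaled by length, Cdc20 stood 3.42 to 11.8 times above Fzr1 in the 6 GV oocytes, with a median of 7.12. In the 7 MII oocytes it stood 65.5 to 512 times above, with a median of 190.3. Cdc20 was thus the more abundant coactivator mRNA already at GV in every oocyte, in both types, and the ratios of the stages did not overlap.

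Fbxo43 (chr15:36150060-36164884, minus strand), which encodes Emi2, was at 153, 183 and 243 CPM in NSN GV oocytes and at 239, 236 and 173 CPM in SN GV oocytes. It was at 454, 479.6 and 723 CPM in NSN-MII oocytes and at 539, 534, 534 and 639 CPM in SN-MII oocytes. No MII oocyte reached down to the GV range, and 3 of the SN-MII oocytes were nearly equal. Fbxo43 rose 2.73-fold (log2 1.45 ± 0.16 SE, adjusted p = 6.31e-07), the largest rise of the 10 genes.

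Fbxo5 (chr10:5799160-5805600, minus strand), which encodes Emi1, was the least changed. Its GV values were 179, 204 and 182 CPM in NSN and 202, 176 and 194 CPM in SN oocytes. Its MII values were 227, 259 and 218 CPM in NSN-MII and 306, 248, 232 and 189.8 CPM in SN-MII oocytes. The lowest SN-MII oocyte lay inside the GV range, so the stages overlapped. Fbxo5 was called higher at MII by 1.26-fold (log2 0.34 ± 0.13 SE, adjusted p = 0.0330), but the call held in only 5 of the 13 fits that left out 1 oocyte (adjusted p 0.0134 to 0.0790), and the log2 change was 0.05 with library totals (adjusted p = 0.776). The oocytes whose removal ended the call were replicates 2 and 3 of SN GV, 1 and 3 of NSN GV, 1 and 2 of SN-MII and 1 and 2 of NSN-MII, with log2 changes of 0.27 to 0.34. The deposited counts of Fbxo5 were not whole in most libraries, as happens where reads are divided between genes. They were 1584.8 in SN GV replicate 1 and 2307.5 in SN-MII replicate 1. The part of such reads in its change was not tested.

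The order of the 2 inhibitor mRNAs per length differed between stages. The ratio of Fbxo43 to Fbxo5 in FPKM was 0.630 to 1.08 in GV oocytes (median 0.799) and 1.28 to 2.53 in MII oocytes (median 1.63). Fbxo43 exceeded Fbxo5 in all 7 MII oocytes, while at GV the ratio lay on both sides of 1.

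**Figure D2:**
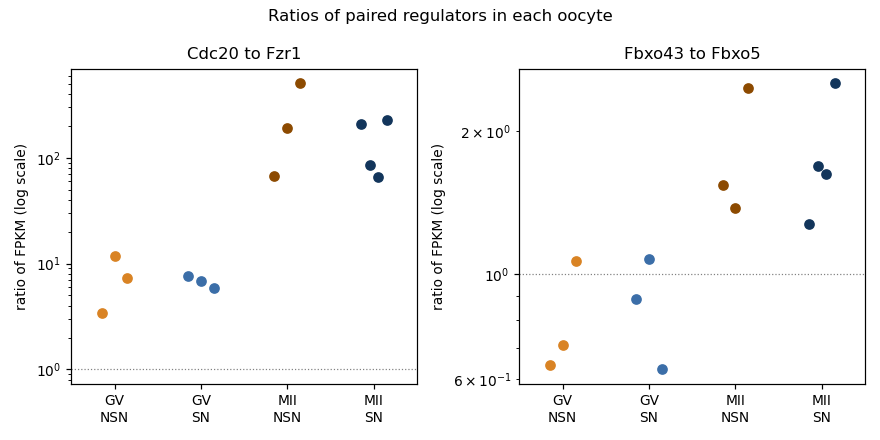
Ratio of FPKM of Cdc20 to Fzr1 (left) and of Fbxo43 to Fbxo5 (right) in each oocyte, on log axes, with a dotted line at a ratio of 1; each point is 1 oocyte. MII oocytes stand above all GV oocytes in both panels, at 65.5 or more on the left and 1.28 or more on the right.

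The 6 core subunit genes did not move as a unit: 2 were called higher and 4 lower at MII. Anapc2, the cullin subunit, and Anapc11, the RING subunit, together form the catalytic centre that meets the ubiquitin-carrying enzyme. Both fell, Anapc2 by far the more.

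Anapc2 (chr2:25272478-25285915, plus strand) was at 68.8, 72.1 and 95.01 CPM in NSN GV oocytes and at 66.1, 64.4 and 54.4 CPM in SN GV oocytes. It was at 8.80, 7.29 and 11.8 CPM in NSN-MII and at 9.28, 9.50, 12.7 and 12.7 CPM in SN-MII oocytes. The MII values were tight and far below the GV values. Anapc2 fell 6.88-fold (log2 -2.78 ± 0.19 SE, adjusted p = 1.47e-09), the smallest adjusted p of the 10 genes.

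Anapc11 (chr11:120598421-120608198, plus strand) was at 72.4, 106 and 81.4 CPM in NSN GV and at 78.5, 73.3 and 105 CPM in SN GV oocytes. It was at 49.1, 40.9 and 14.2 CPM in NSN-MII and at 31.6, 49.4, 49.3 and 47.9 CPM in SN-MII oocytes. The stages did not overlap, and the NSN-MII oocyte of replicate 3 was lowest. Anapc11 fell 2.18-fold (log2 -1.13 ± 0.24 SE, adjusted p = 0.000497). That oocyte had the fewest genes detected of all 13, and in it Fzr1 was also 1.74 below and Cdc20 0.56 above the mean log2 CPM of the other MII oocytes. Transcripts under 1500 bases had a median deviation of -0.26 in it and those of 1500 to 5000 bases one of -0.0052. The Anapc11 transcript taken from the annotation has 3229 bases, but its FPKM point to a shorter one. In SN GV replicate 1, Anapc11 had 616 counts at 77.5 FPKM. Cdc20, with a transcript of 1793 bases, had 1828 counts at 129 FPKM there. The length class of Anapc11 is therefore not settled, and the part of length was not tested. All 10 genes kept their direction between stages without the NSN-MII oocyte of replicate 3.

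Anapc4 and Anapc5 belong to the platform on which the complex is built. Anapc4 (chr5:52834012-52867797, plus strand) was at 273, 265 and 332 CPM in NSN GV and 353, 317 and 275 CPM in SN GV oocytes. At MII it was at 156, 172 and 114 CPM in NSN-MII and at 145, 171, 155 and 190.3 CPM in SN-MII oocytes. It fell 1.93-fold without overlap of the stages (log2 -0.95 ± 0.14 SE, adjusted p = 1.197e-05).

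Anapc5 (chr5:122787459-122821339, minus strand) was at 249, 294 and 274 CPM in NSN GV and 227, 243 and 228 CPM in SN GV oocytes. It was at 192, 202 and 103 CPM in NSN-MII and 135, 174, 188 and 118 CPM in SN-MII oocytes. The highest MII oocyte came close to the lowest GV oocyte. Anapc5 fell 1.58-fold (log2 -0.66 ± 0.17 SE, adjusted p = 0.00228), the smallest fall of the 10 genes.

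Anapc10 and Anapc1 went the other way. Anapc10 (chr8:79711820-79779059, plus strand), a subunit that helps the coactivator hold substrates, was at 34.0, 60.9 and 32.1 CPM in NSN GV and 41.5, 38.3 and 42.4 CPM in SN GV oocytes. At MII it was at 88.4, 76.0 and 142 CPM in NSN-MII and 90.4, 92.9, 82.4 and 113 CPM in SN-MII oocytes. It rose 2.37-fold with no overlap (log2 1.24 ± 0.20 SE, adjusted p = 2.82e-05).

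Anapc1 (chr2:128610104-128687391, minus strand), the largest subunit and a scaffold, was at 115, 23.8 and 142 CPM in NSN GV and 91.7, 113 and 97.0 CPM in SN GV oocytes. It was at 185, 203 and 192 CPM in NSN-MII and 239, 189, 208 and 250.4 CPM in SN-MII oocytes. One NSN GV oocyte, replicate 2, stood far below the others, and the MII oocytes all stood above the highest GV oocyte. Anapc1 rose 2.13-fold (log2 1.09 ± 0.27 SE, adjusted p = 0.00209), and by 0.86 on the log2 scale at the lowest when 1 oocyte was left out. In the NSN GV oocyte of replicate 2 the 2302 genes with transcripts over 5000 bases had a median deviation of -0.50 from the other GV oocytes and the 1586 genes under 1500 bases one of 0.44. The Anapc1 transcript measures 8942 bases, and its deviation there was -2.20; the part of transcript length in it was not tested.

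The changes were then taken within each oocyte type. In SN oocytes 9 of the 10 genes were called, against 56.3% of all genes, and in NSN oocytes 9 of 10, against 56.1%. Fbxo5 was the gene not called in either type (adjusted p = 0.108 in SN and 0.173 in NSN). The calls of 3 others within a type rested on single oocytes. In SN oocytes Anapc5 lost its call (adjusted p 0.0668 to 0.0957) without any 1 of the SN GV oocytes or without replicate 1 or 4 of SN-MII, Anapc1 without replicate 1 or 3 of SN GV (0.0563 to 0.0614), and Anapc11 without replicate 3 of SN GV or 1 of SN-MII (0.0608 to 0.0919). In NSN oocytes Anapc1 lost it without any 1 of the NSN-MII oocytes (0.0741 to 0.0757) and Anapc5 without replicate 3 of NSN-MII (0.0635). Anapc1 was also called in only 3 of 8 other settings in each type, with adjusted p up to 0.120 in SN and 0.147 in NSN oocytes. The log2 change of Fzr1 was -2.73 ± 0.46 SE in SN and -3.68 ± 0.54 SE in NSN oocytes, and that of Anapc2 was -2.48 ± 0.25 SE and -3.08 ± 0.28 SE. Cdc20 changed by 1.33 ± 0.21 SE in SN and 1.202 ± 0.22 SE in NSN oocytes, and Fbxo43 by 1.38 ± 0.22 SE and 1.52 ± 0.23 SE.

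Whether these changes differed between the types was tested by the interaction of type and stage. None of the 10 genes was called, and none had an unadjusted p under 0.05 in edgeR, while 0.0176% of all genes were called. DESeq2 and limma called none of the 10 either. For Anapc2 the log2 change was 0.60 lower in NSN oocytes with a 95% interval of -1.36 to 0.16, and for Fzr1 it was 0.95 lower with an interval of -2.38 to 0.48. The Fzr1 value rested on single oocytes, at -1.63 without replicate 1 of NSN-MII and at -0.57 to -0.62 without replicate 3 of SN-MII, 1 of NSN GV or 3 of NSN-MII, and limma gave -0.49 to -0.68. The intervals of the other 8 genes also included 0, and with 3 or 4 oocytes a group, differences of a size that these intervals hold are not excluded.

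**Figure D3:**
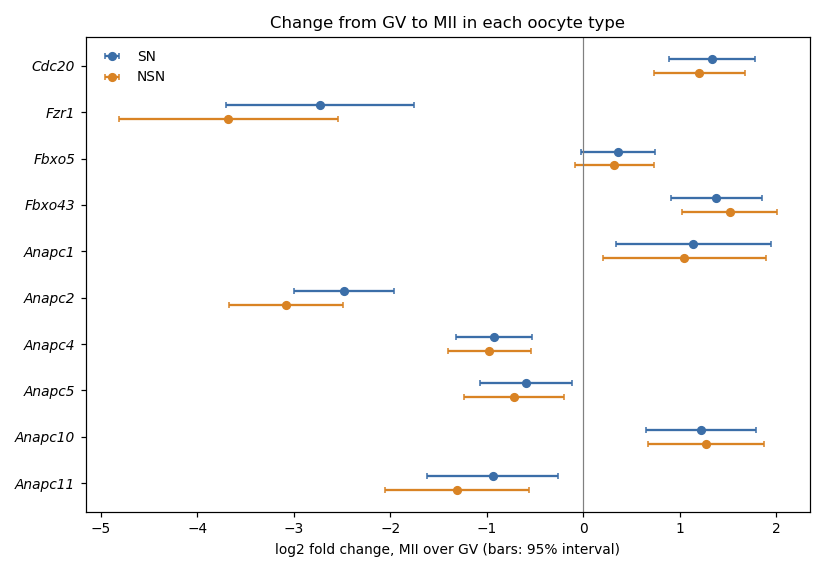
Log2 fold change of MII over GV for each gene, in SN oocytes (blue) and NSN oocytes (orange); points are estimates of the 13-oocyte fit and bars 95% intervals. Both types show the same direction for each gene, from -3.68 for Fzr1 in NSN oocytes to 1.52 for Fbxo43 in NSN oocytes, and the intervals of Fbxo5 include 0.

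NSN and SN oocytes of the same stage were compared next, the question being whether NSN oocytes, most of which are still transcribing, carry other levels of these mRNAs. At GV none of the 10 genes was called, none had an unadjusted p under 0.05 in edgeR, and DESeq2 and limma called none; edgeR called 0% of the 10839 genes tested, of which 183 had an unadjusted p under 0.05, DESeq2 called 0 and limma 1. The log2 differences, NSN over SN, ran from -0.15 for Fbxo43 to 0.37 for Anapc2. Anapc2 (95% interval -0.07 to 0.81) and Anapc5 (log2 0.24, interval -0.07 to 0.56) were the 2 genes in which the types did not overlap in CPM, with NSN above SN in both. Of all genes at GV, 6.04% did not overlap, counting either direction. Neither gene passed the test (adjusted p = 1 for both). In FPKM Cdc20 also separated, narrowly, at 139.38 or more in NSN and 139.35 or less in SN oocytes. The interval was widest for Anapc1, from -1.26 to 1.12, where the low oocyte described above lies in the NSN group. Without that oocyte its log2 difference was 0.39 in place of -0.07 (adjusted p = 0.997).

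At MII none of the 10 genes was called and none had an unadjusted p under 0.05 in edgeR, with no calls by DESeq2 or limma; edgeR called 0.279% of 10028 genes. In none of the 10 did the NSN-MII and SN-MII oocytes separate without overlap, which 10.2% of all genes did. Fzr1 had the largest difference, a log2 value of -0.72 with an interval of -2.01 to 0.57, at counts of 12 to 114 per library. It was -1.36 without replicate 1 of NSN-MII and -0.34 without replicate 3 of either MII group, and the other settings gave -1.06 (replicate block) to -0.32 (limma). Anapc11 followed with -0.35 (interval -1.14 to 0.45), and it was at 0.03 without the NSN-MII oocyte of replicate 3. For Cdc20 the difference was 0.01 (interval -0.40 to 0.43) and for Fbxo43 -0.03 (interval -0.41 to 0.34).

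**Figure D4:**
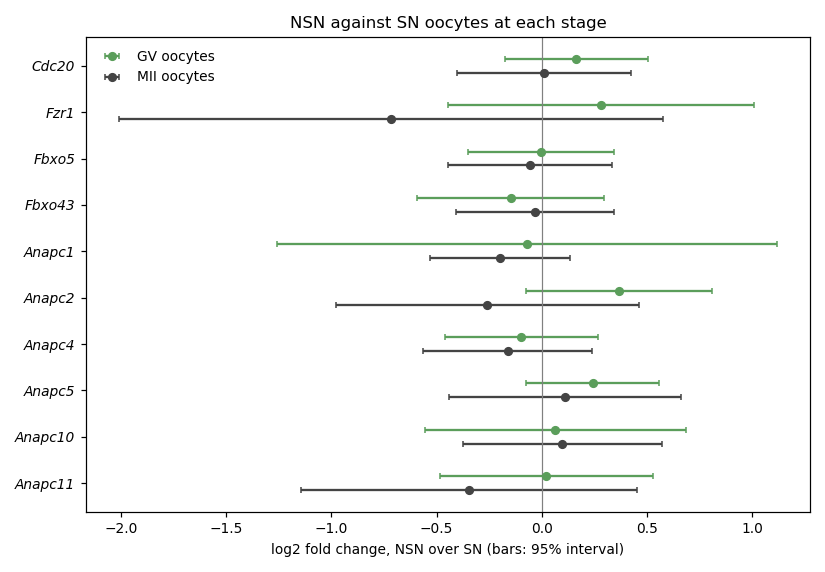
Log2 fold change of NSN over SN oocytes for each gene at GV (green) and at MII (black); points are estimates of the fit within each stage and bars 95% intervals. Every interval includes 0, and the widest are those of Fzr1 at MII, -2.01 to 0.57, and Anapc1 at GV, -1.26 to 1.12.

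Levels of different genes can be set side by side only per length, in FPKM. At GV, Cdc20 was highest with a median of 139 FPKM (128.8 to 157) and did not overlap the next gene. Fbxo5, Anapc5, Anapc4, Anapc11 and Fbxo43 followed with medians of 102 to 81.3 FPKM, neighbours in this order overlapping. After a gap came Anapc2 (21.6), Fzr1 (20.6), Anapc10 (13.5) and Anapc1 (12.8), again overlapping. The ratio of the highest to the lowest median was 10.9.

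At MII the order had spread out, with a ratio of 166 between the highest and lowest medians. Cdc20 (287 FPKM), Fbxo43 (188) and Fbxo5 (119) each stood clear of the next, and the 3 regulators were above all 6 core subunits. Anapc5 (63.8), Anapc11 (41.5), Anapc4 (40.5) and Anapc10 (29.5) formed an overlapping run, and Anapc1 stood at 20.8. Anapc2 (2.87 FPKM) and Fzr1 (1.73 FPKM) overlapped at the bottom.

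The other 8 genes of APC/C subunits were counted in the same way, with 2 called higher at MII, 2 lower and 4 not called, and a median log2 change of -0.37. Of the arm subunits with tetratricopeptide repeats, Cdc27 rose (log2 1.36 ± 0.23 SE, adjusted p = 7.07e-05) and Anapc7 fell (log2 -1.78 ± 0.15 SE, adjusted p = 1.77e-08), while Cdc16 (log2 -0.29, adjusted p = 0.146) and Cdc23 (log2 -0.45, adjusted p = 0.124) were not called. Cdc26, a small subunit that binds Cdc16, rose with overlapping stages (log2 0.71 ± 0.20 SE, adjusted p = 0.00499). Anapc15, which serves the release of checkpoint proteins from the complex, fell (log2 -2.28 ± 0.18 SE, adjusted p = 1.45e-08), but the annotation holds a copy of it, Anapc15-ps, with which reads can be shared. Anapc13 (log2 -0.65, adjusted p = 0.244) and Anapc16 (log2 0.09, adjusted p = 0.589, and -0.20 with library totals) were not called. With the 6 described above, 4 of 14 subunit genes rose and 6 fell. That split depends on the setting: Cdc16 was called lower with library totals (log2 -0.58, adjusted p = 0.00830) and in limma (log2 -0.41 to -0.44, adjusted p 0.0218 to 0.0359), in 4 of 8 alternatives. With library totals Cdc23 was also called lower (log2 -0.73, adjusted p = 0.0280) and Cdc26 lost its call (log2 0.42, adjusted p = 0.0562), and Anapc13 was called lower in 1 limma fit (log2 -1.10, adjusted p = 0.0497).

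**Figure D5:**
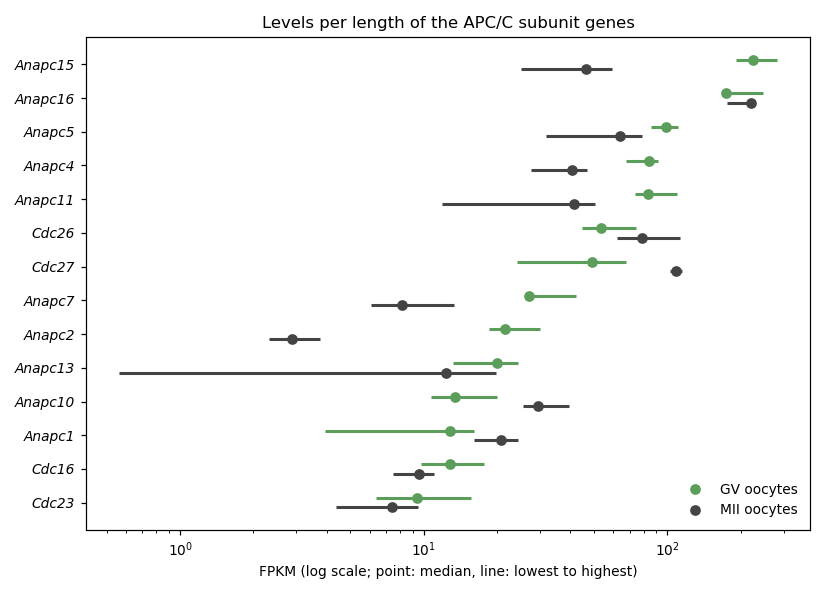
FPKM on a log axis of the 14 APC/C subunit genes in the GV oocytes (green) and the MII oocytes (black), ordered by the median at GV; points are medians and lines run from the lowest to the highest oocyte. Anapc2 drops to the bottom at MII with a median of 2.87 FPKM, while Cdc27 and Anapc10 stand above their GV ranges.

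The partners of the complex came next. Of 5 E2 enzymes that carry ubiquitin and work with the APC/C, 3 rose, 1 fell and 1 was not called, with a median log2 change of 1.04. Ube2d2a rose by a log2 change of 1.48, Ube2d1 by 1.05 and Ube2d3 by 1.04, and Ube2c, the initiating E2 of the complex, was lower at MII (log2 -1.40 ± 0.27 SE, adjusted p = 0.000252) with overlapping stages. Within the types Ube2c was called in NSN oocytes (log2 -2.27 ± 0.42 SE, adjusted p = 0.000234) and not in SN oocytes (log2 -0.53 ± 0.37 SE, adjusted p = 0.229), and the difference between these changes was not called (interaction log2 -1.73 ± 0.55 SE, adjusted p = 0.653).

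Of 8 genes of the spindle checkpoint, which holds Cdc20 in check until chromosomes are attached, 3 rose, 4 fell and 1 was not called (median log2 change -0.41). Mad2l1, whose product binds Cdc20, rose (log2 1.19), as did Mad2l1bp (1.01), which encodes an antagonist of Mad2, and Bub1b (0.92), which encodes the checkpoint protein BubR1. The kinase genes Bub1 (log2 -2.29) and Ttk (-1.36) fell, and so did Mad1l1 (-1.71), whose product anchors Mad2 at kinetochores.

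Bub3, which encodes a checkpoint protein that carries Bub1 and BubR1 to kinetochores, was the only gene of these lists called between the types at MII. It was at 57.6, 65.6 and 79.5 CPM in NSN-MII oocytes and at 146, 176, 148 and 286 CPM in SN-MII oocytes, against 174, 266 and 247 CPM in NSN GV and 278, 268 and 234 CPM in SN GV oocytes. The NSN-MII oocytes lay below all others. Bub3 was lower in the NSN-derived oocytes by 2.80-fold (log2 -1.49 ± 0.25 SE, adjusted p = 0.0348). The call was lost (adjusted p 0.0555 to 0.156) without replicate 2, 3 or 4 of SN-MII or replicate 1 or 2 of NSN-MII, with log2 differences of -1.22 to -1.59, and the interaction with stage was not called (log2 -1.30 ± 0.36 SE, adjusted p = 0.397).

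Ube2c separated the types at MII as well, at 77.4, 43.6 and 14.3 CPM in NSN-MII and 118, 124, 162 and 167 CPM in SN-MII oocytes. It did not pass the test (log2 -1.65 ± 0.44 SE, adjusted p = 0.202), though it did without the NSN-MII oocyte of replicate 3 (log2 -1.23, adjusted p = 0.0222) and in DESeq2 (log2 -1.66, adjusted p = 0.00297). Ube2c was singled out after its values were seen.

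Among 12 genes for APC/C substrates, 7 rose, 3 fell and 2 were not called, with a median log2 change of 0.85. The largest rises were those of the cyclin gene Ccna2 (log2 1.64), the securin gene Pttg1 (1.26) and the geminin gene Gmnn (1.04). The kinase gene Nek2 (log2 -2.38), Dlgap5 (-1.01), which encodes a spindle protein, and Aurka (-0.99), which encodes the Aurora A kinase, fell, Aurka with overlapping stages. None of the 12 was called between the types at either stage.

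Of 12 genes for regulators of Emi1 and Emi2, 11 were tested, and 5 rose, 2 fell and 4 were not called (median log2 change 0.45). Btrc and Fbxw11 encode the closely related F-box proteins that recognise phosphorylated Emi1 and Emi2, and they moved in opposite directions, Btrc with a log2 change of -2.76 ± 0.15 SE and Fbxw11 with 1.24 ± 0.16 SE. The other ligase parts also split, Skp1a falling (log2 -1.38) and Cul1 rising (1.22). Evi5, whose product protects Emi1 from destruction, rose (log2 1.46).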

How the data were processed

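Single-oocyte libraries were grouped by their labels. Per the labels and the paper's methods, the authors trimmed reads with Trim Galore 0.4.4, aligned them with Bowtie2 2.3.5 (mm10) and quantified genes with RSEM 1.2.28. The authors deposited RSEM's expected count values, 1 table per stage, and FPKM values for all libraries. RSEM divides reads shared between genes, so 9.27% to 14.0% of a library's values were not whole, and they were rounded.

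The 2 count tables were joined by symbol, filtered with filterByExpr, scaled by TMM and fitted in edgeR 4.0.16 (R 4.3.3; glmQLFit, robust) over all genes, within stage for NSN against SN and over all 13 libraries otherwise. Benjamini-Hochberg adjustment ran over all genes tested, and an adjusted p under 0.05 was called. Alternatives were DESeq2 1.42.0, other scaling, no filter, a replicate block, limma 3.58.1 on log2(FPKM + 1) or log2(FPKM + 0.1), and each oocyte left out. The common biological coefficient of variation was 0.352 at GV and 0.344 at MII, which with 3 or 4 oocytes a group sets the precision. No library was a copy of another. The fits were also run on simulated counts in which genes of the same level had the same spread, and no result here rests on that run.

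The 10 genes and all gene lists were chosen with earlier results of these data known. Named beside them were all other subunits, up to 3 called genes each way per list, list genes called between types, and for 4 regulators the 3 genes of nearest profile. CPE motifs came from GENCODE transcripts (GRCm38), 1 per gene.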

Additional observations from a re-analysis of the deposited data

Results flagged for a closer look

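Of 30 gene and group combinations tested for a single oocyte standing apart from its group, 4 were marked, and chance marks about 1 in 20. The SN-MII oocyte of replicate 1 had the highest Cdc20 of its group, 686.06 CPM against 559.44 CPM for the next. The same oocyte had the lowest Anapc11 of its group, 31.558 CPM against 47.948 CPM for the next. The SN-MII oocyte of replicate 4 had the highest Fbxo43 of its group, 639.26 CPM against 538.88 CPM. Among all GV oocytes, the NSN oocyte of replicate 2 had the highest Anapc10, 60.9 CPM against 42.4 CPM for the next, and it is the oocyte with the low Anapc1 and the low values of long transcripts.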

How the results depend on the processing

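Between stages, the 5 rises and 5 falls kept their direction under all 21 alternatives run (13 with 1 oocyte left out and 8 others), and 9 genes kept their call. Fbxo5 did not, and was called in 5 of the 13 and 1 of the 8. Within 1 type, Anapc5 and Anapc11 lost their calls in some alternatives. Anapc1 lost its call in most of the 8 others, and was called in only 3 of 8 in SN and 3 of 8 in NSN oocytes. Of the other subunits, Anapc16 reversed with library totals (log2 -0.20), and calls changed for Cdc16 in 4 of 8 alternatives and for Cdc23, Cdc26 and Anapc13 in 1 of 8 each. No gene of the 10 was called between types or in the interaction under any alternative. The differences that changed sign under an alternative are given next, and the cause was not tested.

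At GV, Fbxo5 was at 0.011 with library totals, and leaving out 1 oocyte gave -0.080 to 0.039 for Fbxo5, -0.12 to 0.22 for Anapc11, -0.26 to 0.24 for Anapc10, -0.15 to 0.53 for Fzr1 and -0.44 to 0.39 for Anapc1. At MII it gave -0.16 to 0.069 for Fbxo5, -0.26 to 0.16 for Cdc20, -0.25 to 0.084 for Fbxo43, -0.067 to 0.37 for Anapc5, -0.19 to 0.26 for Anapc10 and -0.68 to 0.026 for Anapc11. In the interaction it gave -0.14 to 0.091 for Fbxo5, -0.17 to 0.094 for Anapc4, -0.11 to 0.35 for Fbxo43, -0.55 to 0.35 for Anapc1, -0.26 to 0.41 for Anapc10 and -0.28 to 0.12 for Anapc5. Limma on log2(FPKM + 1), with or without a mean FPKM of at least 1, gave 0.0019 for Fbxo5 and 0.010 for Fbxo43 at MII, and 0.0019 for Fbxo5 and 0.095 for Anapc1 in the interaction; with log2(FPKM + 0.1) these were 0.0020, 0.010, 0.0020 and 0.14.

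Replicate numbers did not pair the oocytes: deviations of same-numbered NSN and SN oocytes correlated at -0.19, -0.15 and -0.42 at GV and 0.02, 0.08 and -0.10 at MII, and not every oocyte correlated best with its own number. With a replicate block, 10 of the 10 genes were called between stages, 7 in SN and 9 in NSN oocytes, and 0 between types or in the interaction. The block gave -0.045 for Cdc20, 0.0056 for Fbxo43 and -0.048 for Anapc5 at MII, and 0.12 for Anapc1 and 0.0085 for Anapc4 in the interaction. Across all genes, the 28 called between types at MII became 221 in DESeq2, 57 without the filter, 16 with library totals, 3 with the block, 74 with all libraries in 1 fit, 4 in limma, and 3 to 240 with 1 oocyte left out (3 without NSN-MII replicate 1, 240 without NSN-MII replicate 3), and the 2 called in the interaction became 43 in DESeq2, 6 without the filter, 3 with library totals, 1 in limma, and 0 to 12 with 1 oocyte left out. At GV limma called 1 gene. Bub3 lost its call at MII with the block (log2 -1.22, adjusted p = 0.180) and in limma (adjusted p 0.0768 to 0.0872).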

Other observations

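For the 4 regulators, the genes whose profile lay nearest were listed by the root mean square difference of centred log2 CPM over the 13 oocytes, as a description with no test. Cdc20 was followed most closely by Litaf (difference 0.107), Lypla1 (0.112) and Med20 (0.115), with log2 changes between stages of 1.2, 1.38 and 1.22. Fzr1 was followed by Fxr2 (0.291), Kcnip2 (0.315) and Men1 (0.385), each between -3.24 and -3.17. Fbxo43 had the closest neighbours of the 4, Nptn (0.0789), Arfip1 (0.0802) and Atl2 (0.0820), with log2 changes of 1.37, 1.52 and 1.55. Fbxo5 was followed by Tmem181a (0.146), Entpd6 (0.163) and Tars (0.165), with log2 changes of 0.33, 0.14 and 0.37. All 13 points share the contrast between stages.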
